A study of Mus musculus with 4 samples.

Results

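Gata4 binding was examined at 10 genes whose products are secreted by visceral endoderm and liver or serve protein uptake in visceral endoderm: *Afp*, *Alb*, *Ttr*, *Rbp4*, *Apoa1*, *Apob*, *Apoe*, *Amn*, *Cubn* and *Dab2*. The genes were chosen by name from 22238 protein-coding genes by a rule that uses no measured value, although earlier results of these data were known. Every ChIP-seq peak within 50 kb of a member was collected, which gave 12 of the 20410 peaks of the WT Flk1(+) list and 21 of the 22733 peaks of the DKO Flk1(+) list. Binding was compared between WT and *Dnmt3a*-/-*Dnmt3b*-/- double-knockout (DKO) mesoderm cells, the DKO cells lacking both enzymes that place methyl groups on unmethylated CpGs.

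The 4 libraries came from mouse ES cells of the J1 line (129 background) in which the CAG promoter drove Gata4GR, in which Gata4 is joined to the hormone-binding part of the glucocorticoid receptor and is switched on by dexamethasone (Dex). WT Flk1(+) (clone J1G4.2) and DKO Flk1(+) (clone 16G4.3) cells were taken at day 4.5 of culture on OP9 stroma, after 3 hours of 100 nM Dex, and were sorted magnetically for Flk1, a surface receptor of mesoderm. WT ES and DKO ES cells, undifferentiated and without Dex, gave the background of their own genotype. Each condition had 1 library, each Flk1(+) library came from 1 clone, and a mixture of Gata4 antibodies was used, so that Gata4GR and endogenous Gata4 cannot be told apart. No spread between libraries could be measured, so no test between WT and DKO was made and every difference below describes single libraries. The paper gives more mapped reads for the DKO than for the WT Flk1(+) library. How this difference in depth bears on the peaks called in each list was not tested. The data hold no expression, and the identity of the sorted cells could not be checked against markers.

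Visceral endoderm is the extraembryonic layer that feeds the early embryo before the placenta works. It takes up maternal protein through the receptor complex of cubilin (Cubn) and amnionless (Amn), sorts it with adaptors such as Dab2, and secretes plasma proteins and lipoproteins that the liver later makes. Gata4 and its relative Gata6 are regulators of this layer and bind DNA through GATA sequences, searched here as WGATAA, where W is A or T.

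Most peaks at the members were either WGATAA-bearing stretches with few CpGs or CpG-rich stretches without the motif, and a few had neither. The sites below are those within 5 kb of *Apoe*, *Cubn*, *Rbp4* and *Amn* that show these kinds best, read from the deposited windows on the plus strand of mm9, and they carry the values described later. AGATAA or TGATAA, or its complement on the other strand, is in capitals, except at *Amn*, where no match exists and CpGs are in capitals. The site on the 3′ side of *Apoe*, present in both lists, was chr7:20280636-20280776. The sites in introns 28, 31 and 33 of *Cubn*, present in both lists, were chr2:13312860-13313034, chr2:13293629-13293669 and chr2:13280574-13280721. The site in intron 29 of *Cubn*, in the DKO list alone, was chr2:13306463-13306615. The site on the 3′ side of *Rbp4*, in the WT list alone, was chr19:38187152-38187230, and the site in exon 10 of *Amn*, in the DKO list alone, was chr12:112513833-112513933.
Apoe 3′ side: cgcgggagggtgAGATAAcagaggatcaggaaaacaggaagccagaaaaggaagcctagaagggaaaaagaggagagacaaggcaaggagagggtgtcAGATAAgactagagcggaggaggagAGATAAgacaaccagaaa
Cubn intron 28: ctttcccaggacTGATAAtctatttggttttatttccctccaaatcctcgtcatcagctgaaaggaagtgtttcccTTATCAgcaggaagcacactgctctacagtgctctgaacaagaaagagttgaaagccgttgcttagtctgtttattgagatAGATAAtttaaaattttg
Cubn intron 31: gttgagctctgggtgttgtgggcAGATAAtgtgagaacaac
Cubn intron 33: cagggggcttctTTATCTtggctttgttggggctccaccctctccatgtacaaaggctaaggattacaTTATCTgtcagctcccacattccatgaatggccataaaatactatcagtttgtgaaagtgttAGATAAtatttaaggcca
Cubn intron 29, DKO list: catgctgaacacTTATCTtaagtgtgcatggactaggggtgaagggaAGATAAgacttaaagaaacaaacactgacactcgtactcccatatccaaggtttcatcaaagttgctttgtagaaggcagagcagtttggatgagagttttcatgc
Rbp4 3′ side, WT list: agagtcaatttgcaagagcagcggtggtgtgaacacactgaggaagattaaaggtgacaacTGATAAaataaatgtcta
Amn exon 10, DKO list: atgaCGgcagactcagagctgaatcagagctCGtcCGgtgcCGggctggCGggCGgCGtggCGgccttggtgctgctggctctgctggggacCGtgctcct

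The share of members with a peak within 5 kb was a little below that of all genes in both lists. With only 10 genes the share is coarse and cannot be set apart from that of all genes. A WT peak lay within 5 kb of 3 of 10 members (*Apoe*, *Cubn*, *Rbp4*), against 39.4% of all protein-coding genes. A DKO peak lay within 5 kb of 4 of 10 (*Amn*, *Apoe*, *Cubn*, *Dab2*), against 49.1%. Both lists had such a peak at 2 members, *Apoe* and *Cubn*, against 31.9% of genes. Within 50 kb, *Ttr* joined the WT list for 4 of 10 members against 67.1%, and *Apoa1* and *Ttr* joined the DKO list for 6 of 10 against 70.4%. Neither list held a peak within 50 kb of *Afp*, *Alb* or *Apob*, 3 of 10 members against 22.5% of genes. Member genes had a median length of 12395 bp against 15512 bp for all genes, and longer genes held peaks more often: a WT peak lay within 5 kb of 28.6% of genes under 20 kb and 66.8% of genes of 100 to 400 kb, and a DKO peak within 5 kb of 38.9% and 67.8%. Of the 7 members under 20 kb, 2 were within 5 kb of a WT peak and 2 of a DKO peak.

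**Figure D1:**
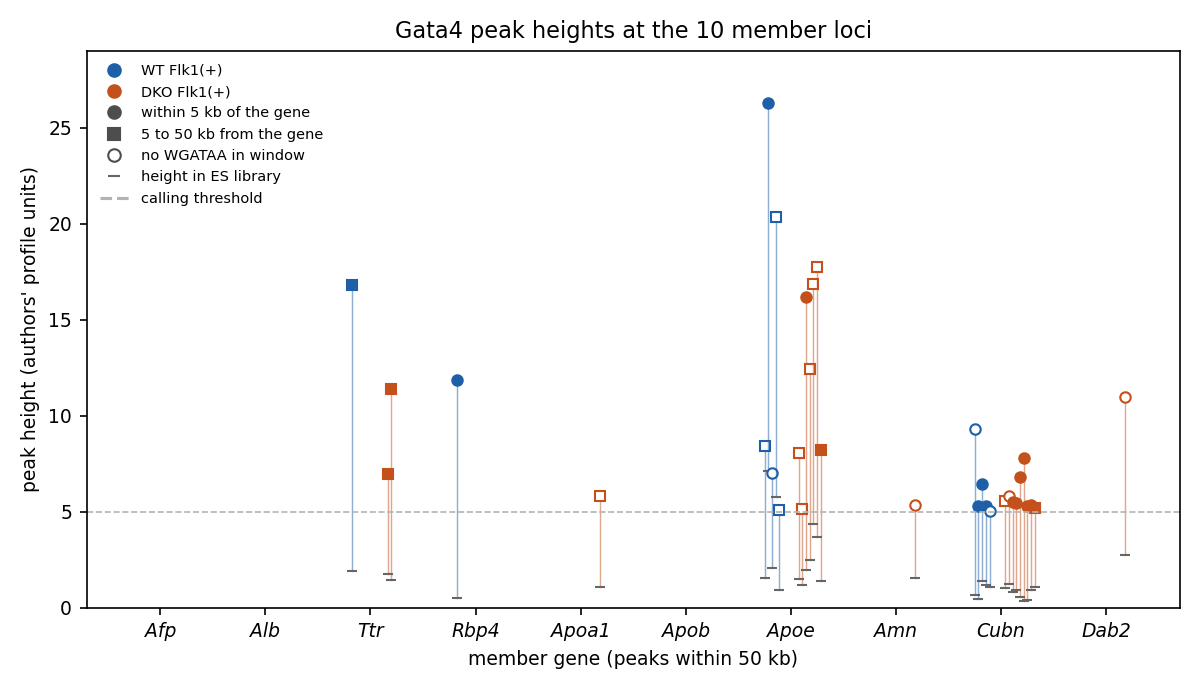
Height of each Gata4 peak within 50 kb of the 10 members (vertical axis, units of the deposited read-density profile) by member gene (horizontal axis), with WT Flk1(+) in blue, DKO Flk1(+) in orange and the height at the same place in the ES library of the genotype as a grey dash. Circles lie within 5 kb and squares 5 to 50 kb from the gene, filled symbols have WGATAA in their 501-bp window, and the dashed line is the height threshold of 5. *Afp*, *Alb* and *Apob* are empty, and the highest peaks of both lists stand at the *Apoe* locus, at 26.3 in WT and 17.7 in DKO.

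The 2 abundant fetal and adult plasma proteins, alpha-fetoprotein (*Afp*, chr5:90919740-90937933, plus strand) and albumin (*Alb*, chr5:90889915-90905629, plus strand), lie next to each other. The nearest DKO peak was 94659 bp from *Afp* (height 7.29) and another was 95136 bp from *Alb* (height 9.88). The nearest WT peak was the same for both genes, 151610 bp from *Afp* and 183914 bp from *Alb*, with a height of 6.66. No peak of either list therefore lay inside or close to this pair of genes, although a place without a peak need not be without signal: the lists give no value where no peak was called.

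The carriers of thyroxine and retinol differed in how they were listed. *Rbp4* encodes the plasma carrier of retinol (chr19:38191110-38199811, minus strand). Its peak, in the WT list alone, lay 3938 bp past the 3′ end at position 38187172, in intron 2 of the neighbouring gene *O3far1*, which the deposited list calls *Gpr120*. It had a height of 11.8 in WT Flk1(+) and 0.502 in WT ES, a value that 97.3% of WT peaks exceeded in ES, and ranked 1713 of 20410. The window held 3 WGATAA matches, of which the stretch printed above shows the one nearest to the peak, and 6 CpGs. The nearest DKO peak was 61532 bp from the gene. The WT peak was thus a strong one that had no counterpart called in DKO, and the signal of the DKO library at that place is not known.

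*Ttr* encodes transthyretin, the carrier of thyroxine (chr18:20823751-20832825, plus strand). Both lists held the same site 44390 bp beyond its 3′ end, in intron 3 of *B4galt6*, an enzyme of glycolipid synthesis. Its height was 16.8 in WT (position 20877215, ES 1.94) and 11.4 in DKO (position 20877217, ES 1.42), and the window held 3 WGATAA matches and 6 CpGs. A further DKO peak, 5092 bp away in the same intron, had a height of 6.98 with 2 matches and 3 CpGs. No peak of either list was closer to *Ttr* than 39298 bp, and *B4galt6* was the nearest gene to all of them.

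Among the apolipoprotein members, only *Apoe* had peaks within 5 kb. *Apoe* encodes a ligand by which lipoproteins are taken up into cells (chr7:20281458-20284515, minus strand). The site 727 bp past its 3′ end, between *Apoe* and *Apoc1*, had a height of 26.3 in WT (position 20280731) and 16.2 in DKO (position 20280733). Its window held 3 WGATAA matches and 8 CpGs, and it was higher than 96.8% of WT and 95.3% of DKO peaks. Over all sites shared by the 2 lists, the median ES height was 2.15 in WT and 1.52 in DKO. At this *Apoe* site the ES libraries differed by a larger factor than the Flk1(+) libraries did. The ES height here was 7.13 in WT, exceeded at only 1.00% of WT peaks, and 1.98 in DKO. The enrichment over ES, in which an ES height below 1 counts as 1, was therefore 3.69 in WT and 8.17 in DKO, in the opposite order to the heights, and the rank was 4646 in WT and 1021 in DKO.

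The WT list held a second *Apoe* peak, in intron 1 and 30 bp from an annotated start (position 20283726), with a height of 6.99, an ES height of 2.07 and a rank of 19105. It had 17 CpGs and no WGATAA match, and the nearest DKO peak was 2993 bp away. Farther out, the highest peaks stood at most 583 bp before the start of *Tomm40*, a gene of the mitochondrial import pore: 1 WT peak of 20.3 and 3 DKO peaks of 12.4, 16.9 and 17.7 that all overlapped it. These windows had 24 to 34 CpGs and no match. A shared site 2557 bp beyond *Apoc2*, which encodes an activator of lipoprotein lipase, had a height of 8.45 in WT and 5.13 in DKO, with 8 CpGs and no match. The DKO list alone held a peak of 8.24 in intron 5 of *Pvrl2* (position 20308304), with 1 match and 7 CpGs. It also alone held a peak of 8.05 located 226 bp before the start of *Clptm1* (position 20250605), with 39 CpGs and no match. The WT list alone held a peak of 5.09 in intron 1 of *Pvrl2* (position 20334360), with 26 CpGs and no match. Of the 3 sites that both lists shared at this locus, only the one past the 3′ end of *Apoe* held the motif.

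*Apoa1*, the main protein of high-density lipoprotein (chr9:46036663-46038549, plus strand), and *Apob*, the structural protein of low-density lipoprotein (chr12:7984454-8023641, plus strand), had no peak inside or within 5 kb. The 1 DKO peak within 50 kb of *Apoa1* (position 46081111) was 42562 bp away and 36 bp from the start of *Zfp259*, with a height of 5.84, 30 CpGs and no match, and the nearest WT peak was 53610 bp from *Apoa1*. At *Apob* the nearest peaks were 73643 bp (WT) and 299599 bp (DKO) away.

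**Figure D2:**
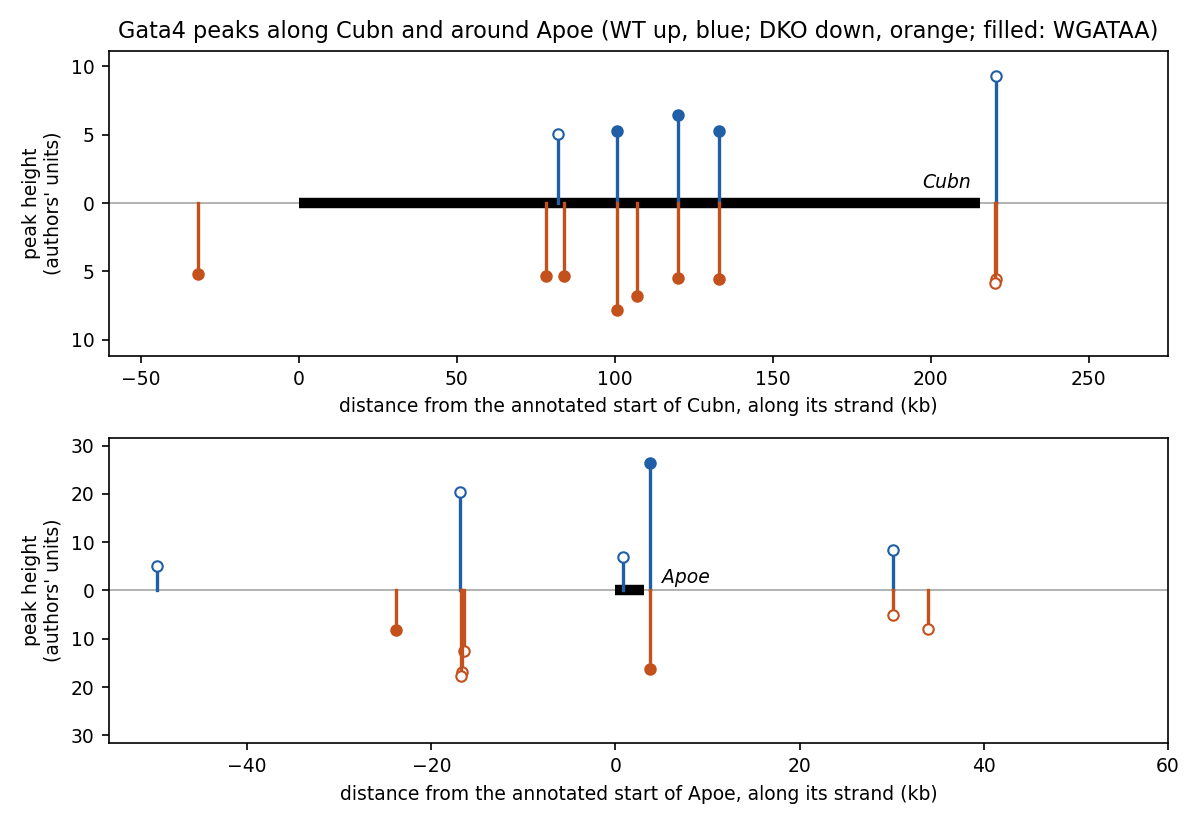
Peaks along *Cubn* (top) and around *Apoe* (bottom) by distance from the annotated start of the gene in its own direction (horizontal axis, kb), with the gene as a black bar. Stems give peak height in units of the deposited profile (vertical axis), upward in blue for WT and downward in orange for DKO, and filled circles mark WGATAA in the window. The *Cubn* peaks gather in the middle of the gene, and the motif-bearing site just past the end of *Apoe* is the highest WT peak there, at 26.3, and stands at 16.2 in DKO, where the *Tomm40* peaks reach 17.7.

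The uptake genes held most of the peaks that lay inside a member. *Cubn* encodes cubilin, the ligand-binding part of the uptake receptor (chr2:13197965-13413551, minus strand), and at 215587 bp it is the longest member. It held 4 WT and 6 DKO peaks inside, 3 of each list at shared sites, and all lay in introns 27 to 33 within 51061 bp (WT) and 54711 bp (DKO), with none at the start. Of 2077 genes of 100 to 400 kb, 13.7% held at least as many WT peaks as *Cubn* and 4% held at least as many DKO peaks.

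The shared *Cubn* sites had heights of 5.30 to 7.82. In intron 33 the height was 5.30 in WT (position 13280607) and 5.52 in DKO (position 13280592), with 3 matches. In intron 31 it was 6.47 in WT (position 13293649) and 5.48 in DKO (position 13293617), with 1 match. In intron 28 it was 5.30 in WT (position 13312923) and 7.82 in DKO (position 13312926), with 3 matches. WT was thus the higher in intron 31 and DKO in introns 28 and 33. The lowest height in either list was 5.00, and the DKO peak in intron 28 was higher than 61.9% of DKO peaks.

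The other *Cubn* sites were called in 1 list each. The DKO list alone held a peak of 6.81 in intron 29 (position 13306595, 2 matches, 2 CpGs) and peaks of 5.31 (position 13329507, 2 matches, no CpG) and 5.34 (position 13335303, 1 match, 4 CpGs) in intron 27. The WT list alone held a peak of 5.06 in intron 27 (position 13331668), with 1 CpG and no match, 2161 bp from the nearest DKO peak. All 6 DKO peaks and 3 of 4 WT peaks inside *Cubn* had WGATAA, with 0 to 6 CpGs (DKO) and 1 to 5 CpGs (WT) in the window. ES heights at these peaks were 0.436 to 1.41 in WT and 0.365 to 0.935 in DKO.

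Just beyond the 3′ end of *Cubn*, peaks of both lists marked the start of *Rsu1*, the next gene: 9.29 in WT, 4932 bp from *Cubn*, and 5.57 and 5.81 in DKO, with 23 to 26 CpGs and no match. A last DKO peak lay 31830 bp upstream of *Cubn* in intron 3 of *Trdmt1*, with a height of 5.20 and 2 matches.

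*Amn* encodes amnionless, which brings cubilin to the cell surface (chr12:112509322-112514637, plus strand). Its single peak, in the DKO list alone, lay in coding exon 10 (position 112513883) with a height of 5.34, an ES height of 1.56 and a rank of 14069 of 22733. It had no match and 47 CpGs, more than 85.5% of DKO peaks, and a GC content of 69.1%. The nearest WT peak was 137108 bp from the gene. It was a low peak, near the threshold.

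*Dab2* encodes an endocytic adaptor that serves as a marker of primitive and visceral endoderm (chr15:6249788-6390712, plus strand). Its single peak was also in the DKO list alone, at position 6336752 in the first exon, a 5′ untranslated one, of the main transcript, 4 bp from an inner annotated start and 86964 bp from the outermost start. It was higher than the *Amn* peak, at 11.0 with an ES height of 2.77, an enrichment of 3.96 and a rank of 9607, and its window held 33 CpGs and no match. The nearest WT peak was 115914 bp from the gene. The peaks called in DKO alone at *Amn* and *Dab2* were thus CpG-rich without the motif, whereas those in *Cubn* were CpG-poor with it. Peaks of the former kind were common: 8701 of the 12483 unshared peaks of the whole DKO list lacked the motif. All DKO peaks without it had a median of 33 CpGs.

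Across the member loci, the motif went with few CpGs. Of 12 WT peaks, 6 held WGATAA (50%, 95% Wilson interval 25.4 to 74.6%), against 61.9% of all WT peaks. Of 21 DKO peaks, 11 did (52.4%, 32.4 to 71.7%), against 38.1% of all DKO peaks, but without the *Cubn* locus the share was 33.3%, below that of all DKO peaks. These intervals cover counting error only, and neighbouring peaks are not independent. With WGATAR the shares were 66.7% in WT, against 71.8% of all WT peaks, and 57.1% in DKO, against 48.9% of all DKO peaks. Motif-bearing member peaks had 4 to 8 CpGs in WT and 0 to 8 in DKO, and those without had 1 to 26 in WT and 8 to 47 in DKO. Over the whole lists the medians ran the same way, 6 CpGs with and 27 without the motif in WT, and 7 and 33 in DKO. The median over all member-locus peaks was 7 CpGs in WT, against 8 in the whole list, and 8 in DKO, against 21. The DKO median too rests on *Cubn*: without that locus it was 53.9 CpGs per kb of window instead of 16.0. In the same unit it then lay above the median of the whole DKO list instead of below it.

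At least 3 matches stood in 5 of 12 WT and 4 of 21 DKO member-locus peaks, against 12.2% and 6.88% of the lists. In both, these are the sites at *Ttr*, *Apoe* and introns 28 and 33 of *Cubn*, and in WT also the one at *Rbp4*. The match closest to the peak position was at a median distance of 17 bp in either list, against 35 bp over all motif-bearing WT peaks and 41 bp over all such DKO peaks.

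Sharing was described next, a peak being shared where its 501-bp window overlapped one of the other list by at least 1 bp. Of the member-locus peaks, 8 of 12 in WT (66.7%, 39.1 to 86.2%) and 11 of 21 in DKO (52.4%, 32.4 to 71.7%) were shared, against 45.6% and 45.1% of the whole lists. The DKO count is larger because several DKO peaks overlapped the same WT peak at *Tomm40* and *Rsu1*. Taking each peak with its mutually nearest partner left 8 sites. WT was the higher at 6 of 8 sites, against 71.9% of 8489 such sites in the whole lists, and the exceptions were introns 28 and 33 of *Cubn*. The median DKO to WT ratio of heights was 0.762 at the member sites and 0.806 over all sites, but the ratio of enrichments over ES was 1.12 and 1.05, so that the direction turned with the measure. The DKO Flk1(+) library had more mapped reads than the WT one, according to the paper. How heights were scaled for depth is not known, and a ratio is read here only against that of all sites. By ratio, the sites ran from 0.600 at *Rsu1* to 1.48 in intron 28 of *Cubn*.

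**Figure D3:**
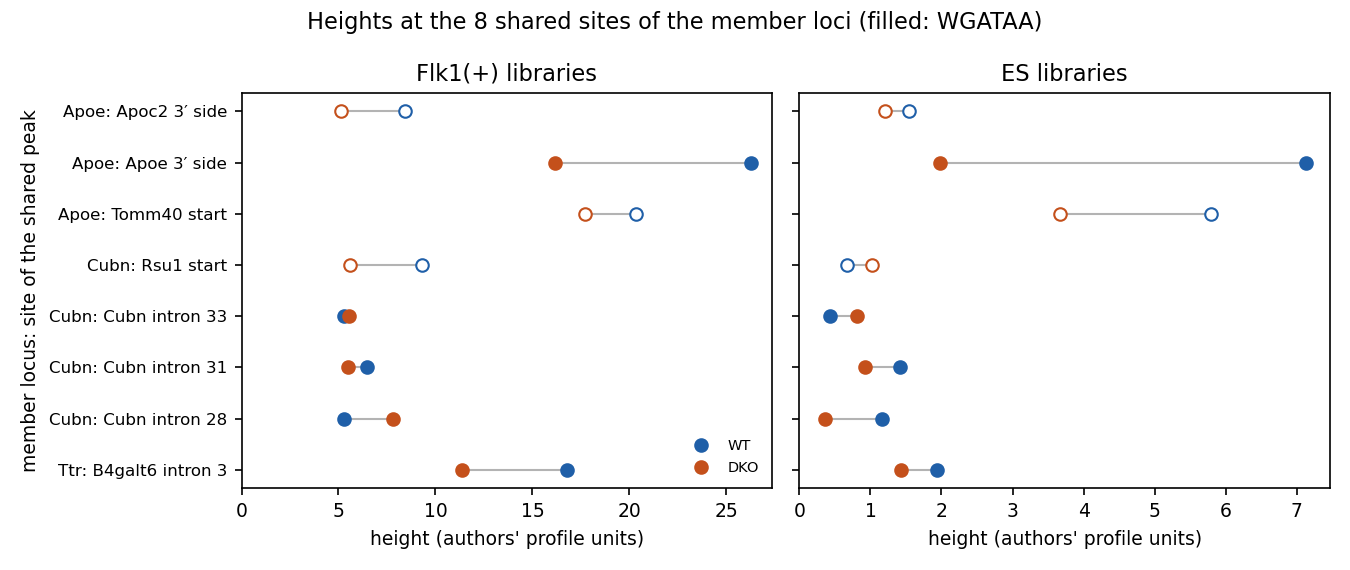
Heights at the 8 shared sites of the member loci (vertical axis, member locus and place) in the Flk1(+) libraries (left) and at the same places in the ES libraries (right), in units of the deposited profile. Blue is WT, orange is DKO, filled circles have WGATAA, and each line joins the 2 genotypes. WT is to the right at 6 of 8 sites on the left, and the widest gap on the right is at the 3′ side of *Apoe*, 7.13 against 1.98.

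The motif was also searched in the promoters of the members. RefSeq windows of 300 bases around the start (GRCm38.p6, 250 before and 50 after) were matched by symbol for 9 of 10 members, all but *Ttr*, in 13 windows. AGATAA or TGATAA, on either strand, occurred in 2 of 13, once at *Apoa1* and at 2 places at the outer start of *Dab2*, or 15.4% of windows and 22.2% of members with a window, against 18.6% of 32851 windows in all. Neither start had a peak within 5 kb in either list. The windows held 2 to 40 CpGs, with 3 each at *Afp* and *Alb*, 4 at *Apoa1*, 5 at *Cubn*, 9 at *Apob*, 15 at *Amn* and 19 at the inner start of *Dab2*, against a median of 7 over all windows.

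Further genes of the same roles were counted in 3 lists chosen by function. Of 16 secreted plasma protein genes, among them *Trf*, *Gc*, *Ahsg*, *Serpina1a* and the fibrinogen genes, 1 lay within 5 kb of a WT peak and 0 of a DKO peak, against 39.4% and 49.1% of all genes. The 1 was *Trf*, for the iron carrier transferrin, with a peak of 5.62 in intron 16 that ranked 20407 of 20410 and lay 109 bp from *Srprb*. Within 50 kb, WT peaks reached 12 of the 16, against 67.1% of all genes, and DKO peaks 5, against 70.4%. Neighbouring genes can share a peak, as *Fga*, *Fgb* and *Fgg* share 1 WT peak, so the genes of these counts are not independent. The 16 genes had a median length of 11310 bp, and 28.6% (WT) and 38.9% (DKO) of all genes under 20 kb had a peak within 5 kb. Peaks within 5 kb were thus almost absent, as at *Afp* and *Alb*, whereas WT peaks within 50 kb were not.

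Of 12 lipoprotein genes, 6 had a WT peak and 9 a DKO peak within 5 kb, against 39.4% and 49.1% of all genes. All 6 were in both lists, against 31.9% of all genes: *Apoa2*, *Apoc1*, *Apoc2*, *Apoh*, *Apom* and *Mttp*. Those with a DKO peak alone were *Apoa5*, *Lcat* and *Soat2*. The peaks of *Apoc1* and *Apoc2* are those of the *Apoe* locus described above and that of *Apoa5* is the one at *Zfp259*, so these counts are not independent of the members. The highest DKO peak of this list was at *Apom*, the carrier of sphingosine 1-phosphate, at 17.1 (position 35272511, 48 CpGs, no match). It was the highest of 5 DKO peaks there. The 1 WT peak had a height of 8.90 (position 35272015, 45 CpGs, no match). The windows of these 2 peaks overlap, so that they count as shared, but the heights stand at different positions and are not compared. *Mttp*, whose product loads lipid onto Apob, had 5.66 in intron 5 in WT (1 match, 7 CpGs) and 12.2 upstream of the gene in DKO (no match, 54 CpGs), so that the 2 lists marked different places.

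Of 12 uptake genes, 7 had a WT peak and 9 a DKO peak within 5 kb, against 39.4% and 49.1% of all genes. Both lists had such a peak at 5 (among them *Stra6*, *Clta*, *Ap2a1* and *Lrpap1*), against 31.9%, and *Folr1* had none. At *Clta* and *Lrpap1* the highest peaks of the 2 lists were not shared and marked different places. *Lrp2*, for megalin, the partner of cubilin, and *Myo6* had low WT peaks alone, of 5.48 and 5.11, and *Lrp1*, *Scarb1*, *Ehd1* and *Clcn5* had DKO peaks alone.

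The highest peak near any of these genes was at *Stra6*, which encodes the cell-surface receptor for Rbp4. At chr9 position 57968513 the height was 95.7 in WT, with an ES height of 4.93 and a rank of 14, and at position 57968501 it was 30.02 in DKO, with an ES height of 6.81 and a rank of 1485. The window held 4 matches and 7 CpGs. It lies inside the outermost annotated span of *Stra6*, 13369 bp before the start of its main transcript, and 1883 bp from *Ccdc33*, the gene under which it was deposited. Neither list gives *Stra6* as the gene of any peak. The other 7 WT peaks within 5 kb of that span had heights of 5.18 to 12.6.

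**Figure D4:**
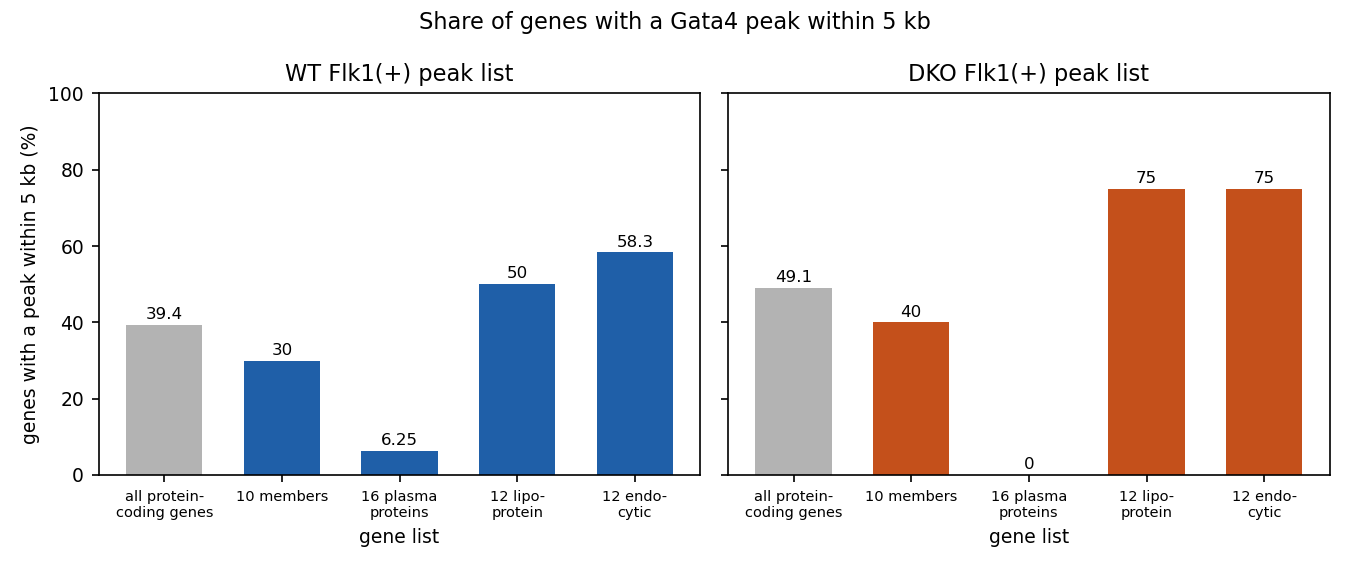
Share of genes with a peak within 5 kb (vertical axis, percent) in the WT (left, blue) and DKO (right, orange) lists, for all protein-coding genes in grey and for the 10 members, 16 plasma protein genes, 12 lipoprotein genes and 12 uptake genes (horizontal axis). The members stand a little below the grey bar in both lists, a gap too small to read with only 10 genes. The plasma protein genes stand at 6.25% and 0%, whereas both other lists stand above the grey bar. The plasma protein genes had a median length of 11310 bp and the lipoprotein genes one of 3305 bp. Of all genes under 20 kb, 28.6% (WT) and 38.9% (DKO) had a peak within 5 kb. The uptake genes had a median length of 46566 bp against 15512 bp for all genes, and with only the better-scoring 50% of peaks 3 (WT) and 4 (DKO) of 12 had a peak, against 22.1% and 32.5% of all genes. No test was made between bars.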

How the data were processed

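Gata4 ChIP-seq was analysed from 2 deposited peak lists made from 4 libraries. Per the submitters' processing notes, reads were handled with CASAVA 1.8.1 and cutadapt against mm9. The authors called peaks with DNAnexus in each Flk1(+) library with the ES cells of that genotype as background. Any depth scaling of the profile and the treatment of duplicates are not given in the sources used here, so how depth enters a height is unknown. The authors deposited, for each peak, its position, 501 bases around it, the signal (profile height) in the Flk1(+) and ES libraries, their ratio (enrichment, with an ES height below 1 taken as 1), the −log10 of a q-value, a rank used as the score, and genes within 5 kb. No column names a library, and lists were assigned to genotypes by the numbers of peaks the paper states.

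Each peak was counted once. Genes came from GENCODE vM1 (mm9), with the longest entry per symbol, and introns and exons from the protein-coding transcript with the most exonic bases. The windows matched the mm9 reference at the deposited positions at all member loci. Distances were taken to the gene body. The counts over all genes or all peaks of a list served as background. Members and lists were chosen with earlier results of these data known. All members were named, with every peak within 5 kb, shared or highest-ranked peaks out to 50 kb, and up to 4 genes of each other list by highest peak. Genes and peaks beyond these were given to complete counts and loci, after their values were seen. One item under the rule is not reported here. The steps were tested on simulated positions and motifs. Alternatives were other distances, the deposited gene names, start sites, stricter scores and enrichments, closer positions, WGATAR and the central 201 bp. Taking nearest genes alone, leaving out *Cubn* and the alternatives for the further lists were added after seeing the data. Computation used pandas 2.3.3, NumPy 2.4.6, SciPy 1.17.1 and Matplotlib 3.10.9 under Python 3.11.15.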

Additional observations from a re-analysis of the deposited data

How the results depend on the processing

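No paired analysis was possible because each condition had 1 library and no test between libraries was made. Of 53 alternatives over 19 results, 41 stayed within 1.5 times of the value reported (shares within its 95% Wilson interval). Counting from start sites left 1 of 10 members with a WT peak within 5 kb, against 30.7% of all genes, and an enrichment of at least 5 left 2 with a DKO peak, against 23.4%. Where only peaks nearest to the member itself were kept, 2 members had a WT peak within 50 kb, and the peaks fell to 6 in WT and 9 in DKO. Without *Cubn*, the DKO median was 53.9 CpGs per kb. The median DKO to WT ratio at shared sites turned from 0.762 for heights to 1.12 for enrichments. Among further genes, secreted plasma proteins had 0 with a WT peak under the deposited gene names and 0 among the better-scoring 50% of the list, which also left 5 lipoprotein genes (DKO) and 3 (WT) and 4 (DKO) uptake genes of 12 each, against 22.1% (WT) and 32.5% (DKO) of all genes, which is close to the shares of the uptake genes. The cause was not tested. Many member-locus peaks were close to the height threshold, and the lists give no height where no peak was called.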
